A study of Mus musculus with 30 samples.

Results

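Interleukin-6 family signalling was followed through 9 genes of sorted mouse astrocytes. The ligand genes were Il6, Clcf1 and Lif, the receptor genes Osmr, Il6st, Lifr and Cntfr, and the downstream genes Stat3 and Socs3. They were chosen by name for their place in the pathway, with earlier results of these data known. They are 9 of the 18193 genes that the array names with 1 symbol. All 9 were among the 15726 genes kept by a filter on low intensities (a log2 intensity of at least 5 on at least 3 arrays). Il6 lay under that level on 17 of the 30 arrays and Clcf1 on 9, and the other 7 members lay above it on every array. The 13 arrays on which Il6 passed the level were all MCAO or LPS arrays, so Il6 was kept only through groups in which it is high.

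Ligands of this family bind receptor complexes that share gp130, the product of Il6st. Janus kinases bound to the complex then phosphorylate STAT3, which enters the nucleus and switches on target genes, among them Socs3, whose product blocks the same kinases. In injured brain the pathway is known for its part in astrocyte reactivity and scar formation.

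Middle cerebral artery occlusion (MCAO) is a stroke model in which blood flow to part of 1 brain hemisphere is cut, here for 1 hour and then restored. Male young adult mice had MCAO or sham surgery and were studied after 1, 3 or 7 days, and others received 5 mg/kg of the bacterial endotoxin lipopolysaccharide (LPS) or saline into the abdominal cavity and were studied after 1 day. The groups were MCAO at 1 day (5 arrays), sham at 1 day (4), MCAO at 3 days (3), sham at 3 days (3), MCAO at 7 days (3), sham at 7 days (3), LPS (5) and saline (4). Every mouse, controls included, carried the Tg(Aldh1l1-eGFP) transgene on a Swiss Webster background. Its Aldh1l1 promoter marks astrocytes with green fluorescent protein, and cells freed with papain were sorted on that signal. Each profile is thus of cells sorted on this signal, from brains that were not divided by distance from the lesion in the labels. Each array is labelled a biological replicate, and no label says that it stands for its own animal, so the p-values speak only of the scatter among these arrays. In a sorted population, fewer cells of a type and less RNA per cell cannot be told apart.

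Values are log2 of the deposited intensities, and a difference of 1 is a doubling. Aldh1l1 itself lay between 11.13 and 13.71 on all arrays. By the highest intensity on the array, over or under 30000, the arrays fell into a bright set of 16 and a dim set of 14, which the labels do not mention. All 9 surgery arrays of 1 day were bright and all 6 of 7 days were dim, so levels on these days, and any change of the MCAO effect between them, cannot be told apart from the set of arrays. Both groups of 3 days had 1 bright and 2 dim arrays, LPS had 3 bright and 2 dim, and saline had 2 of each. The median intensity was 94 on LPS array 5 and between 68 and 73 on all other arrays.

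The start regions of several members hold a short STAT, NF-kappaB or AP-1 motif. Of these factors, STAT is the one named in the pathway as described above. The regions of Socs3, Il6 and Osmr are shown, 3 members that were called after stroke and hold such a motif. They were not the only members called: Lif also holds a motif and is not shown, and Il6st and Lifr hold none. Each run is 300 bases, 250 before the annotated start and 50 after it, 5′ to 3′ on the strand of the gene, from RefSeq on GRCm38.p6. The Socs3 window is chr11:117969317-117969616 on the minus strand, the Il6 window chr5:30012864-30013163 on the plus strand, and the Osmr window chr15:6874264-6874563 on the minus strand. Capitals mark TTCNNNGAA, the STAT motif, in Socs3, GGGA and TTTCC with any base between them, an NF-kappaB motif, and TGANTCA, the AP-1 motif, in Il6, and TGANTCA in Osmr.
Socs3: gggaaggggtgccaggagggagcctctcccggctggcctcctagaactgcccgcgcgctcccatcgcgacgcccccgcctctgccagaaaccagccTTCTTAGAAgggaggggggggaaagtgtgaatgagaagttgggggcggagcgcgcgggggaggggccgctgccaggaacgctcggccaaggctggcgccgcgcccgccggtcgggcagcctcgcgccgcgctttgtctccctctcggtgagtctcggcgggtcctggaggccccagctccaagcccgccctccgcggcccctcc
Il6: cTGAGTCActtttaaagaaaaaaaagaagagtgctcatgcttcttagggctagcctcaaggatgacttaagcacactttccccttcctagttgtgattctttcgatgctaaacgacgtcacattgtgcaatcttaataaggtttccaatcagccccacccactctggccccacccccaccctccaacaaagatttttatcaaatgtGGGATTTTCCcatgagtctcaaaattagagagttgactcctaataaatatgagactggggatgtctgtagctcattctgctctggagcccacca
Osmr: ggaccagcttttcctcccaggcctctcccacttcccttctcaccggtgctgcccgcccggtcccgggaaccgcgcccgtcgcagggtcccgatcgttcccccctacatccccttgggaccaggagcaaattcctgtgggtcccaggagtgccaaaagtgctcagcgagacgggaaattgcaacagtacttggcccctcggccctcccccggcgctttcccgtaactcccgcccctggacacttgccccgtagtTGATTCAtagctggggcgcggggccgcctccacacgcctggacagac
The STAT motif of Socs3 lies at bases -154 to -146 from the start. In Il6 the NF-kappaB motif lies at -44 to -35 and the AP-1 motif at -249 to -243, and the AP-1 motif of Osmr lies at bases 3 to 9. Both strands were searched, and the motifs do not overlap here. Of 32817 RefSeq start windows of this length, 8.29% hold the STAT motif, 0.411% the NF-kappaB motif and 7.81% the AP-1 motif. Lif holds an AP-1 motif at -228 to -222. The windows of Il6st, Lifr, Cntfr and Stat3 hold none of these letters, and Clcf1 had no window in the table. Osmr and Lifr are neighbours on chromosome 15, with 0 protein-coding genes between them in RefSeq. A match of letters does not show that a factor bound there.

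Stroke was followed within 1 day by higher Il6, Clcf1, Lif, Osmr and Socs3 in sorted astrocytes. Il6st was also called higher and Lifr lower, but both calls were lost when the arrays were paired. By limma's test over all genes at an adjusted p under 0.05, 6 of the 9 members were higher and 1 was lower after MCAO than after sham surgery at 1 day, where 12.7% of all genes were called (6.49% higher and 6.17% lower). Il6 is among the 6, and it passed the filter only through MCAO and LPS arrays. The median difference of the 9 members was 2.39, against -0.05 over all genes. Because the members were chosen with earlier results of these data known, this count and median only describe them. With the arrays paired by the numbers in their description labels, Il6st (0.65, adjusted p = 0.0658) and Lifr (-0.51, adjusted p = 0.162) were not called, the other 5 members were, and 1218 genes were called in all, against 1991 unpaired. Arrays of the groups did not overlap for 7 members that lay higher and 1 that lay lower, against 12.1% and 15.2% of all genes (27.3% in either direction).

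Il6, the founding ligand of the family, read 8.73, 10.17, 7.79, 10.61 and 7.55 on the MCAO arrays of 1 day, against 4.64, 4.39, 4.86 and 4.17 on the sham arrays. Every MCAO array lay above every sham array, and the sham arrays all lay under the filter level. Taking the sham arrays at that level, Il6 was at least 15.7-fold higher after MCAO. The fitted log2 difference of 4.46 ± 0.56 SE (adjusted p = 4.55e-06) rests on dim sham readings and is no exact fold. It is measured by 1 probe set.

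Clcf1 encodes cardiotrophin-like cytokine factor 1, a ligand that acts through the CNTF receptor. Its log2 intensities were 9.79, 9.17, 8.95, 8.76 and 8.77 after MCAO, against 4.58, 4.81, 5.29 and 4.81 after sham surgery. The MCAO arrays lay close together, and 3 of the 4 sham arrays lay under the filter level. Clcf1 was 18.6-fold higher (log2 difference 4.22 ± 0.44 SE, adjusted p = 3.77e-07). That size rests on dim sham readings and is no exact fold. The 3 probe sets of Clcf1 gave differences between 1.17 and 6.13, each called.

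Lif encodes leukaemia inhibitory factor. It read 11.62, 8.80, 8.40, 9.03 and 7.94 after MCAO, against 6.75, 6.34, 7.08 and 6.64 after sham surgery. The groups did not overlap, and MCAO array 1 stood far above the other 4. Lif was 5.47-fold higher (log2 difference 2.45 ± 0.52 SE, adjusted p = 0.00185), and without MCAO array 1 the difference was 1.84 (adjusted p = 0.00417). A second probe set, near the filter level, gave 0.21 and was not called (adjusted p = 0.667).

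Osmr, the chain that binds oncostatin M together with gp130, read 13.58, 13.59, 13.28, 13.13 and 13.38 after MCAO, against 8.91, 9.12, 11.89 and 8.92 after sham surgery. The MCAO arrays all lay between 13.13 and 13.59, while sham array 3 stood apart from the other sham arrays. Osmr was 12.8-fold higher (log2 difference 3.68 ± 0.62 SE, adjusted p = 0.000148), and without sham array 3 the difference was 4.41 (adjusted p = 9.18e-06). On sham array 3 the summed intensity of 9 neuron markers was 10950 and of 9 endothelial markers 8665, the highest of the 1-day surgery arrays. MCAO array 4 had sums of 8134 and 8370, and the other 1-day surgery arrays had at most 3275 and 3458. The part of these markers in the readings was not tested. All 3 probe sets were called, with differences between 0.91 and 3.68.

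Il6st, the shared signalling chain gp130, read between 11.31 and 11.42 on the 5 MCAO arrays, against 10.57 to 10.82 on the 4 sham arrays. The groups were tight and did not overlap, and the shift was small. Il6st was 1.59-fold higher (log2 difference 0.67 ± 0.19 SE, adjusted p = 0.0158). Without sham array 2 it was not called (0.63, adjusted p = 0.0587), nor with the mean of its 4 probe sets (0.49, adjusted p = 0.0626), and its other 3 probe sets were not called.

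Lifr, the chain that binds Lif and, with gp130 and Cntfr, the CNTF-type ligands, read 10.80, 11.84, 11.56, 11.44 and 11.80 after MCAO, against 12.40, 12.04, 12.43 and 11.82 after sham surgery. MCAO array 1, the one with the most Lif, had the least Lifr, and the groups overlapped at their edge. Lifr was 1.61-fold lower (log2 difference -0.68 ± 0.21 SE, adjusted p = 0.0311). It was called in 4 of the 9 fits that left out 1 array. The call was lost without MCAO array 1 (-0.51, adjusted p = 0.126) or 4 (-0.67, adjusted p = 0.0606), and without sham array 1 (-0.61, adjusted p = 0.114), 2 (-0.73, adjusted p = 0.0520) or 3 (-0.60, adjusted p = 0.0997). It was also lost with quantile normalisation (-0.62, adjusted p = 0.0568), median centring (-0.67, adjusted p = 0.0607) and the mean of its probe sets (-0.45, adjusted p = 0.0908).

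Cntfr, the receptor chain that gives a complex its affinity for CNTF-type ligands, read 7.58 to 8.03 after MCAO, against 8.06 to 8.39 after sham surgery. Every MCAO array lay below every sham array by a narrow margin, and the difference of -0.38 ± 0.27 SE was not called (adjusted p = 0.480). In a fit on the 1-day surgery arrays alone it was (adjusted p = 0.0255), and so was its dimmer second probe set (-0.48, adjusted p = 0.0498).

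Stat3, the transcription factor of the pathway, read 12.98, 12, 12.44, 12.76 and 12.12 after MCAO, against 10.81, 11.20, 11.91 and 10.27 after sham surgery. No MCAO array lay below a sham array, and sham array 3 was again the highest of its group. The difference of 1.41 ± 0.54 SE was not called (adjusted p = 0.0896). The call depended on the probe set: a Stat3 probe set without the Affymetrix suffix for probes shared between transcripts gave 1.46 (adjusted p = 0.0127), and the mean of the 4 probe sets gave 1.04 (adjusted p = 0.00478). Fitted on the 1-day surgery arrays alone, Stat3 was called as well (adjusted p = 0.00637). With all probe sets tested side by side, 1 of the 4 of Stat3 was called. The probe set used was called in 0 of the 9 fits that left out 1 array.

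Socs3, the feedback inhibitor, read 12.79, 12.34, 11.59, 11.97 and 11.79 after MCAO, against 9.26, 9.31, 10.65 and 9.61 after sham surgery. Every MCAO array was above every sham array. Socs3 was 5.23-fold higher (log2 difference 2.39 ± 0.43 SE, adjusted p = 0.000322). Its 3 probe sets were all called, with differences between 1.5 and 2.39.

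**Figure D1:**
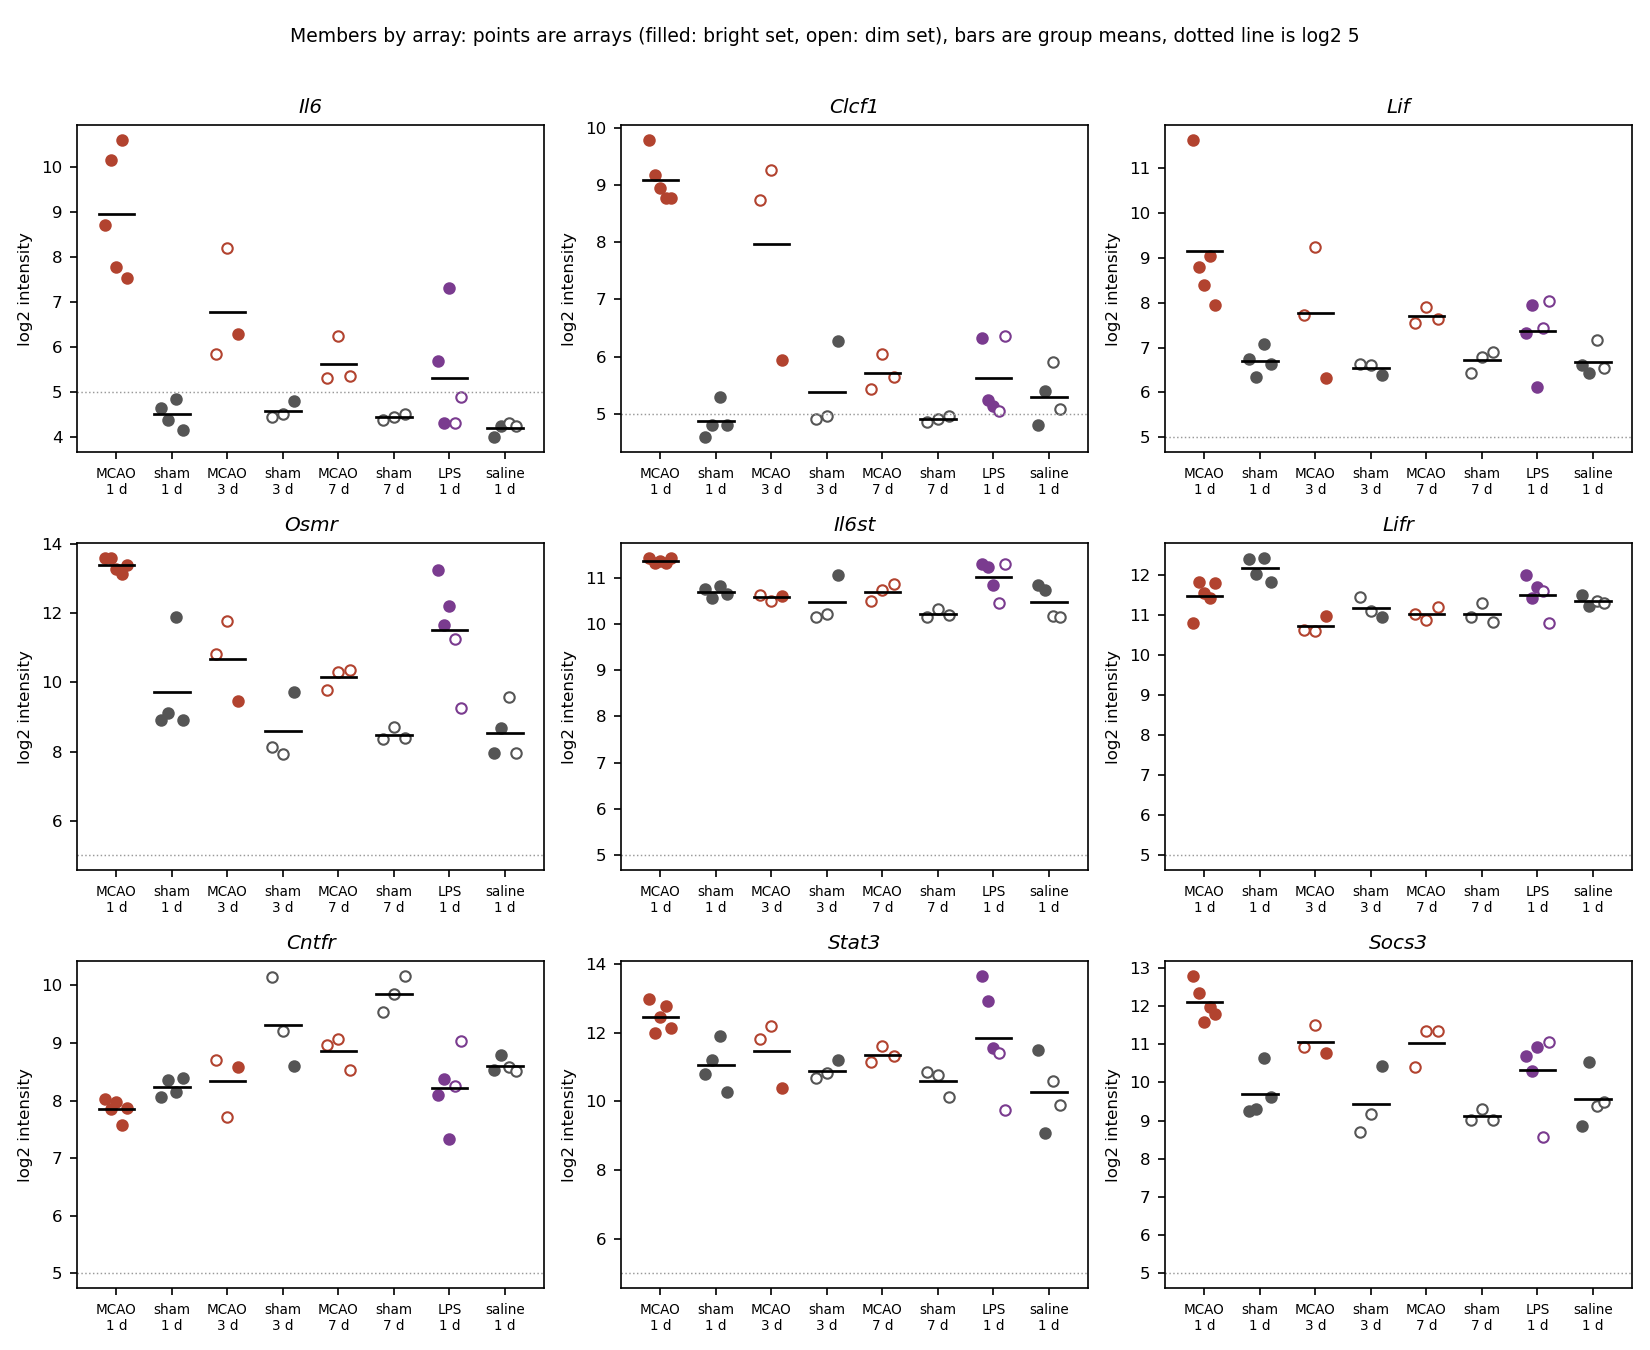
Log2 intensity of each member (vertical axes) on each of the 30 arrays, by group along the horizontal axis. Points are arrays, filled for the bright and open for the dim set, bars are group means, and the dotted line is the filter level of 5. For Il6 and Clcf1 the MCAO arrays of 1 day lie above all sham arrays, and the Osmr panel shows sham array 3 of 1 day at 11.89.

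At 3 days after stroke Clcf1 was the member that was called, and its arrays disagreed. By the same test 1 of the 9 members was higher and 0 were lower, where 0.674% of all genes were called (0.61% higher and 0.0636% lower). The median of the members was 1.22, against 0.01 over all genes. Clcf1 read 8.74, 9.26 and 5.93 after MCAO, against 4.91, 4.95 and 6.27 after sham surgery. MCAO arrays 1 and 2 were high and MCAO array 3 lay below sham array 3. Clcf1 was 6.06-fold higher (log2 difference 2.60 ± 0.54 SE, adjusted p = 0.0205).

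The Clcf1 call of 3 days was lost without MCAO array 1 (2.22, adjusted p = 0.163) or 2 (1.96, adjusted p = 0.268) and without sham array 1 (2.36, adjusted p = 0.220) or 2 (2.39, adjusted p = 0.195). Without MCAO array 3 the difference was 3.62 (adjusted p = 1.75e-05). In a fit on the 3-day arrays alone the gene was not called (adjusted p = 0.440). Array 3 of each group is the bright one. Sham array 3 of 3 days also had a summed intensity of 10194 for fibroblast markers, 7052 for oligodendrocyte precursor markers and 24387 for oligodendrocyte markers. The other sham arrays of 3 days had at most 1963, 1585 and 12416, and the 3 MCAO arrays had 2030 to 7350, 2331 to 4226 and 16835 to 21263. The part of these markers in the 3-day results was not tested. Within the 2 dim arrays of each group Clcf1 differed by 4.07, and between the single bright pair by -0.34. Osmr differed by 3.26 within the dim arrays and by -0.26 in the bright pair, and Stat3 by 1.25 and -0.81. Il6 was positive in both, at 2.55 and 1.5, as was Socs3, at 2.27 and 0.34.

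Of the other members at 3 days, Il6 read 5.86, 8.22 and 6.30 after MCAO, against 4.46, 4.52 and 4.81 after sham surgery. Its arrays did not overlap, and the difference of 2.20 ± 0.68 SE was not called (adjusted p = 0.156). Socs3 read 10.93, 11.51 and 10.75, against 8.71, 9.17 and 10.41, and its difference of 1.63 ± 0.52 SE was not called (adjusted p = 0.171), though it was without sham array 3 (2.12, adjusted p = 0.0407). These are the 2 members whose arrays did not overlap, where 5.74% of all genes lay higher without overlap and 6.94% lower. Cntfr read 8.71, 7.71 and 8.58 after MCAO, against 10.15, 9.21 and 8.60 after sham surgery. Its difference of -0.99 ± 0.33 SE was not called (adjusted p = 0.199), but was without sham array 3 (-1.35, adjusted p = 0.0344). Osmr (2.09 ± 0.75 SE), Lif (1.22 ± 0.64), Stat3 (0.56 ± 0.66), Il6st (0.10 ± 0.23) and Lifr (-0.44 ± 0.26) were not called either.

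At 7 days after stroke 0 of the 9 members were called by limma, where 0.0254% of all genes (4 genes) were called. The readings were still ordered: arrays of the groups did not overlap for 7 members that lay higher after MCAO and 1 that lay lower, against 9.65% and 6.68% of all genes. At an unadjusted p under 0.05 there were 4 members, Osmr, Il6st, Cntfr and Socs3, and 412 genes in all, or 2.62%. The median of the members was 0.80, against -0.01 over all genes.

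Socs3 read 10.40, 11.35 and 11.35 after MCAO at 7 days, against 9.01, 9.31 and 9.01 after sham surgery (log2 difference 1.92 ± 0.52 SE, adjusted p = 0.327). Osmr read 9.79, 10.30 and 10.34, against 8.35, 8.70 and 8.39 (1.66 ± 0.75 SE, adjusted p = 1). For both genes the lowest MCAO array was above the highest sham array. In a fit on the 6 arrays of 7 days alone, Socs3 (adjusted p = 0.0158), Osmr (adjusted p = 0.00783) and Lif (adjusted p = 0.0322) were called. Cntfr read 8.97, 9.07 and 8.54 after MCAO, against 9.53, 9.85 and 10.16 after sham surgery (-0.99 ± 0.33 SE, adjusted p = 0.861). It is the 1 member whose MCAO arrays all lay below the sham arrays, while its dimmer second probe set differed by 0.17 and the mean of both by -0.41. The summed intensity of 6 oligodendrocyte precursor markers at 7 days was 2623 to 3407 after MCAO, against 1075 to 1392 after sham surgery, and 1 of them, C1ql1 (1.81 ± 0.21 SE), was called. That of 7 fibroblast and leptomeningeal markers was 2241 to 5597, against 1244 to 1828. Their part in the readings of the members was not tested. The remaining differences were 1.18 ± 0.68 SE for Il6, 0.98 ± 0.64 for Lif, 0.80 ± 0.54 for Clcf1, 0.77 ± 0.66 for Stat3, 0.47 ± 0.23 for Il6st and 0.01 ± 0.26 for Lifr.

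Whether the effect of stroke changed with time was tested on the differences themselves. The 1-day arrays are all bright and the 7-day arrays all dim, so a change between these days cannot be told apart from a difference between the sets. The MCAO effect on Clcf1 was smaller at 7 days than at 1 day by 3.42 on the log2 scale (-3.42 ± 0.70 SE, adjusted p = 0.0220), the only member called in that contrast, where 0.356% of all genes were called (0.0636% higher and 0.293% lower). Pairing the 1-day arrays ended this call, and so did leaving out 9 of the 15 arrays in turn, with adjusted p up to 0.0993. They were MCAO array 1 and sham arrays 1, 2 and 4 of 1 day, MCAO arrays 1 and 3 of 7 days, and sham arrays 1, 2 and 3 of 7 days, with differences between -3.24 and -3.44. The change for Il6 was -3.27 ± 0.88 SE (adjusted p = 0.122), for Osmr -2.02 ± 0.97 (adjusted p = 0.570), for Lif -1.47 ± 0.82 (adjusted p = 0.693), and for Lifr 0.69 ± 0.33 (adjusted p = 0.574). For Socs3 it was -0.46 ± 0.67 SE, with a 95% interval from -1.84 to 0.91, for Il6st -0.20 ± 0.29, for Cntfr -0.61 ± 0.43 and for Stat3 -0.64 ± 0.85. In a fit on the 1-day and 7-day surgery arrays alone the Il6 change was called (adjusted p = 0.0207).

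Between 3 days and 1 day, and between 7 and 3 days, limma called 0 members, where 0.00636% and 0% of all genes were called. At an unadjusted p under 0.05 there were 2 members in the contrast of 3 days and 1 day, with 5.99% of all genes, and 1 member in that of 7 and 3 days, with 1.74%. The 3-day effect minus the 1-day effect was -2.26 ± 0.88 SE for Il6, -1.62 ± 0.70 for Clcf1, -1.60 ± 0.97 for Osmr and -1.23 ± 0.82 for Lif. It was -0.76 ± 0.67 for Socs3, -0.57 ± 0.29 for Il6st, 0.25 ± 0.33 for Lifr, -0.61 ± 0.43 for Cntfr and -0.85 ± 0.85 for Stat3. For Clcf1 the 7-day effect minus the 3-day effect was -1.80 ± 0.76, and for the other 8 members it lay between -1.01 (Il6) and 0.44 (Lifr).

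**Figure D2:**
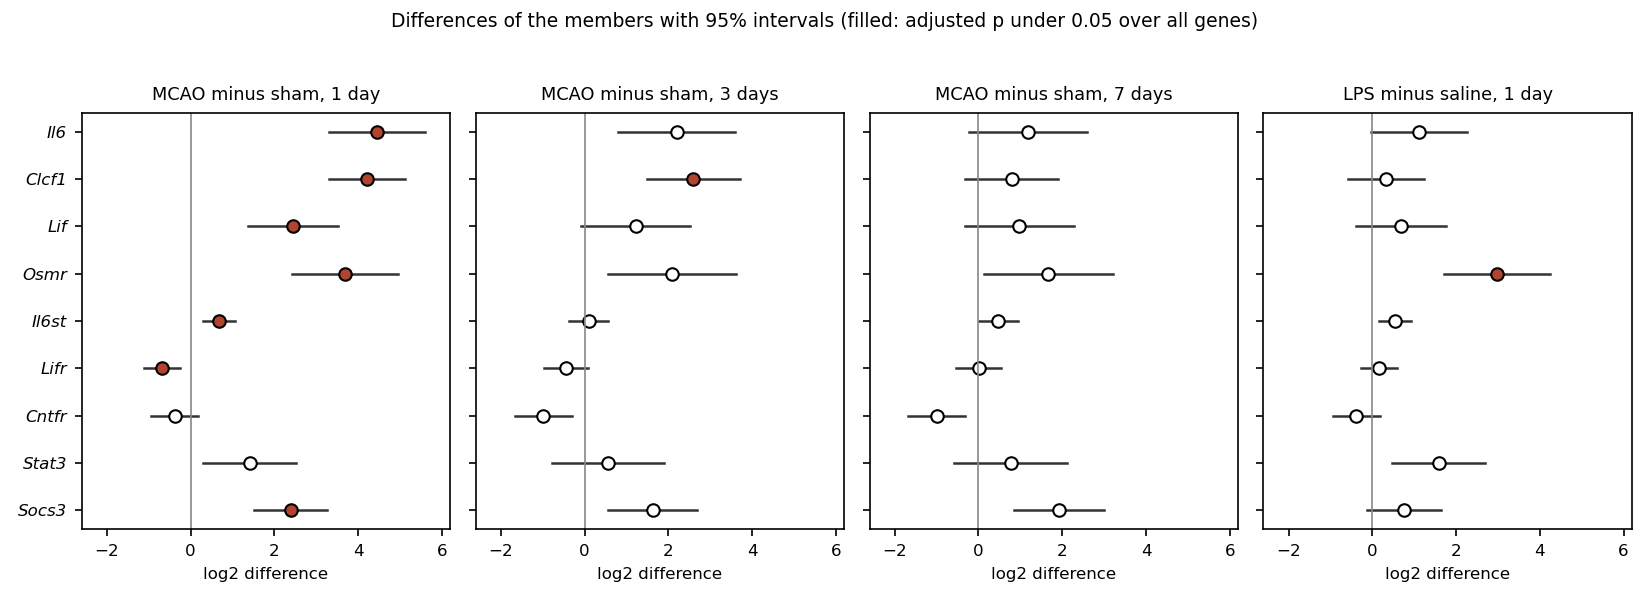
Log2 difference of each member (horizontal axes) in the 4 comparisons with a control, with 95% intervals from limma. Filled points passed an adjusted p under 0.05 over all genes: 7 members for MCAO against sham on day 1, Clcf1 on day 3, 0 on day 7, and Osmr for LPS against saline.

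Endotoxin was followed after 1 day by higher Osmr, without a call for any ligand. By limma's test 1 of the 9 members was higher and 0 were lower after LPS than after saline, where 3.11% of all genes were called (2.37% higher). The median of the members was 0.69, against 0.07 over all genes, and for 0 members did the arrays of the groups stay apart, against 2.75% of all genes (1.88% higher).

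Osmr read 13.26, 11.64, 12.20, 11.24 and 9.26 after LPS, against 7.96, 8.68, 9.58 and 7.95 after saline. The first 4 LPS arrays lay above every saline array and LPS array 5 lay between the saline arrays. Osmr was 7.86-fold higher (log2 difference 2.98 ± 0.62 SE, adjusted p = 0.00555), and it was called in each of the 9 fits that left out 1 array. Of its 3 probe sets, with differences between 0.48 and 2.98, this one was called and the other 2 were not. It was 4.05 higher within the bright arrays (3 LPS, 2 saline) and 1.48 higher within the dim arrays (2 of each). In a fit on the LPS and saline arrays alone it was not called (adjusted p = 0.118).

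Stat3 spread widely after LPS, at 13.65, 12.92, 11.54, 11.42 and 9.74, against 11.49, 9.08, 10.59 and 9.90 after saline. LPS array 5 was low and saline array 1 was high. The summed intensity of 10 astrocyte markers was 72899 on LPS array 5, the lowest of all 30 arrays, against 107793 to 150405 on the other LPS arrays, and that of 8 neutrophil and monocyte markers was 956, the highest of all. Their part in the results that turn on this array was not tested. The difference of 1.59 ± 0.54 SE was not called (adjusted p = 0.113), but was without LPS array 5 (2.11, adjusted p = 0.0108) or without saline array 1 (1.99, adjusted p = 0.0431). When probe sets with the shared-probe suffix were left out for all genes it was called (1.40, adjusted p = 0.0466), as it was with the mean of probe sets (1.08, adjusted p = 0.0141). With all probe sets tested side by side, 0 of the 4 of Stat3 were called. Within the bright arrays it was 2.42 and within the dim arrays 0.33.

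The ligands read close to their saline levels on several LPS arrays. Il6 read 5.70, 4.32, 7.32, 4.32 and 4.91 after LPS, against 4.0, 4.25, 4.32 and 4.25 after saline, and its difference of 1.11 ± 0.56 SE was not called (adjusted p = 0.327). LPS arrays 1 and 3 were above the filter level and the other 3 were under it. Clcf1 lay between 5.04 and 6.36 after LPS, against 4.81 to 5.91 after saline (0.32 ± 0.44 SE, adjusted p = 0.765). Lif lay between 6.13 and 8.04, against 6.43 to 7.17 (0.69 ± 0.52 SE, adjusted p = 0.557). None of these differences was called, and the groups overlapped for all 3 ligands.

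Il6st read 10.45 to 11.30 after LPS, against 10.14 to 10.84 after saline (0.55 ± 0.19 SE, adjusted p = 0.113), and was called without LPS array 4 (0.69, adjusted p = 0.0223). Socs3 read 10.69, 10.31, 10.93, 8.57 and 11.07 after LPS, against 8.86, 10.52, 9.37 and 9.48 after saline (0.76 ± 0.43 SE, adjusted p = 0.398). LPS array 4 was the lowest of all 9 arrays. Lifr (0.17 ± 0.21 SE) and Cntfr (-0.39 ± 0.27 SE) were not called. A Lifr probe set other than the one used gave 0.94 after LPS (adjusted p = 0.0357), and all 3 of its probe sets were positive there. The 2 probe sets of Cntfr differed in sign after LPS, at -0.39 and 0.29.

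Stroke and endotoxin were set against each other at 1 day, each with its own controls. The MCAO effect exceeded the LPS effect for Clcf1 by 3.90 ± 0.63 SE (adjusted p = 0.00101) and for Il6 by 3.35 ± 0.79 SE (adjusted p = 0.0304). These were the 2 of 9 members called, where 1.39% of all genes were called. For Il6 all sham and saline arrays and 3 of the 5 LPS arrays lay under the filter level, so the size of its difference rests on dim readings. The sham mean of Clcf1 at 1 day (4.87) lay under that level too. Clcf1 was called in each of the 18 fits that left out 1 array and Il6 in 8 of them. Il6 was not called without MCAO array 1, 2 or 4, sham array 1, 2 or 4, LPS array 2, or saline array 2, 3 or 4, where its difference lay between 2.94 and 3.41 and its adjusted p reached 0.0725. Among the bright arrays alone the Il6 difference was 2.80 (adjusted p = 0.298), and in a fit on these 4 groups alone it was not called (adjusted p = 0.0865).

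For Osmr the effects differed by 0.71 ± 0.87 SE (95% interval -1.08 to 2.49) and for Stat3 by -0.17 ± 0.76 (-1.74 to 1.39). These intervals are wide and leave room for a difference of more than 1 on the log2 scale either way. Lif (1.77 ± 0.74, adjusted p = 0.279) and Socs3 (1.63 ± 0.60, adjusted p = 0.194) were not called. Lifr (-0.85 ± 0.30, adjusted p = 0.172) was called without LPS array 5 (-1.02, adjusted p = 0.0339). Il6st differed by 0.12 ± 0.26 and Cntfr by 0.01 ± 0.38.

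**Figure D3:**
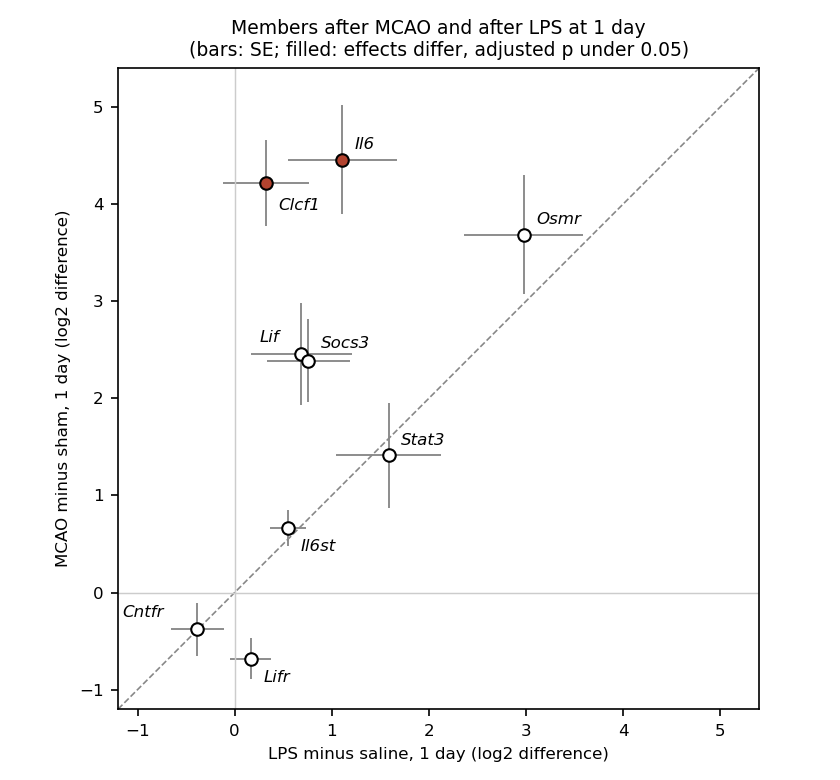
Log2 difference after MCAO at 1 day (vertical axis) against that after LPS (horizontal axis) for the 9 members, with SE bars and the line of equal effects. Filled points, Clcf1 and Il6, are the members whose effects differed at an adjusted p under 0.05.

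Over the 8 groups the mean log2 intensity was highest after MCAO at 1 day for 7 members, all but Lifr and Cntfr. Il6 averaged 8.97 ± 1.38 there, 6.79 ± 1.25 after MCAO at 3 days and 5.64 ± 0.52 at 7 days (SD, n = 5, 3 and 3), and neighbours in that order overlapped. Clcf1 averaged 9.09 ± 0.42, 7.98 ± 1.79 and 5.70 ± 0.31 in the same order, also with overlap between neighbours. Socs3 averaged 12.09 ± 0.48, 11.06 ± 0.39 and 11.03 ± 0.55, and the 1-day arrays stood clear of the 3-day arrays. For Osmr and Stat3 the group after MCAO at 1 day was followed by LPS, at 11.52 ± 1.47 and 11.85 ± 1.51 (SD, n = 5), with overlap. Il6st after MCAO at 1 day (11.37 ± 0.06) stood clear of LPS (11.02 ± 0.37), the next group. Lifr was highest after sham surgery at 1 day (12.17 ± 0.29, SD, n = 4) and lowest after MCAO at 3 days (10.73 ± 0.21). Cntfr was lowest after MCAO at 1 day (7.86 ± 0.17) and highest after sham surgery at 7 days (9.85 ± 0.32). These orders across days also follow the bright and dim sets.

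Other genes of the pathway were described from lists of ligands, receptors, kinases and STATs, inhibitors and textbook STAT3 targets. At 1 day after MCAO, where 12.7% of all genes were called, 1 of 4 other ligand genes was called, Il11 (1.53 ± 0.32 SE), another gp130 ligand. Of 3 other receptor genes and of 8 kinase and STAT genes, limma called 0. Of 15 inhibitor genes 1 was higher, Socs5 (0.69 ± 0.19), and 1 was lower, Pias1 (-0.82 ± 0.20), which encodes a SUMO ligase known to restrain STAT activity. Calls among the inhibitors were thus about as frequent as among all genes. After LPS, where 3.11% of all genes were called, 2 of the 8 kinase and STAT genes were higher. They were the kinase Jak3 (0.99 ± 0.21) and Stat2 (0.91 ± 0.25), a STAT of interferon signalling. Of the other ligands, receptors and inhibitors 0 were called after LPS. Stat4 and the target Nnmt did not pass the filter.

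Of 23 STAT3 target genes tested, 18 were higher and 0 lower after MCAO at 1 day, where 12.7% of all genes were called, with a median of 1.69, against -0.05 over all genes. The largest were Lcn2 (7.83 ± 0.69 SE), a secreted iron-scavenging protein, Timp1 (5.26 ± 0.59), a metalloprotease inhibitor, Cd44 (3.69 ± 0.49), the hyaluronan receptor, Fosl1 (3.28 ± 0.30), an AP-1 subunit, and Serpina3n (3.18 ± 0.33), a protease inhibitor. At 3 days 5 were higher, Lcn2 (4.68 ± 0.83), Timp1 (3.83 ± 0.72), Fosl1 (2.14 ± 0.37), Serpina3n (1.83 ± 0.41) and Birc5 (1.72 ± 0.40), with a median of 1.65, where 0.674% of all genes were called. At 7 days Serpina3n (2.21 ± 0.41) was higher, with a median of 1.11, where 0.0254% of all genes were called. Several of these genes are known as reactive astrocyte genes from this study, so the list is not independent evidence of a direction, and many respond to other factors too.

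After LPS 10 of the 23 targets were higher and 0 lower, with a median of 1.09, against 0.07 over all genes, of which 3.11% were called (2.37% higher). The largest were Lcn2 (8.46 ± 0.69 SE), Timp1 (5.49 ± 0.59), Serpina3n (4.95 ± 0.33), Icam1 (3.59 ± 0.67), an adhesion molecule, and Bcl3 (2.93 ± 0.40), a partner of NF-kappaB. All 10 were also called after MCAO at 1 day, which is 55.6% of the 18 called there. The MCAO effect exceeded the LPS effect for 2 of the 23 targets, Fosl1 (3.06 ± 0.43) and Cd44 (2.67 ± 0.69). It was below the LPS effect for Pias1 (-1.26 ± 0.28), which is on the list of inhibitors. In that contrast 1.39% of all genes were called. The 7-day MCAO effect was below the 1-day effect for 2 targets, Lcn2 (-5.58 ± 1.08) and Fosl1 (-2.56 ± 0.48), where 0.356% of all genes were called. The surgery arrays of 1 day are all bright and those of 7 days all dim, so this change cannot be told apart from the sets.

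**Figure D4:**
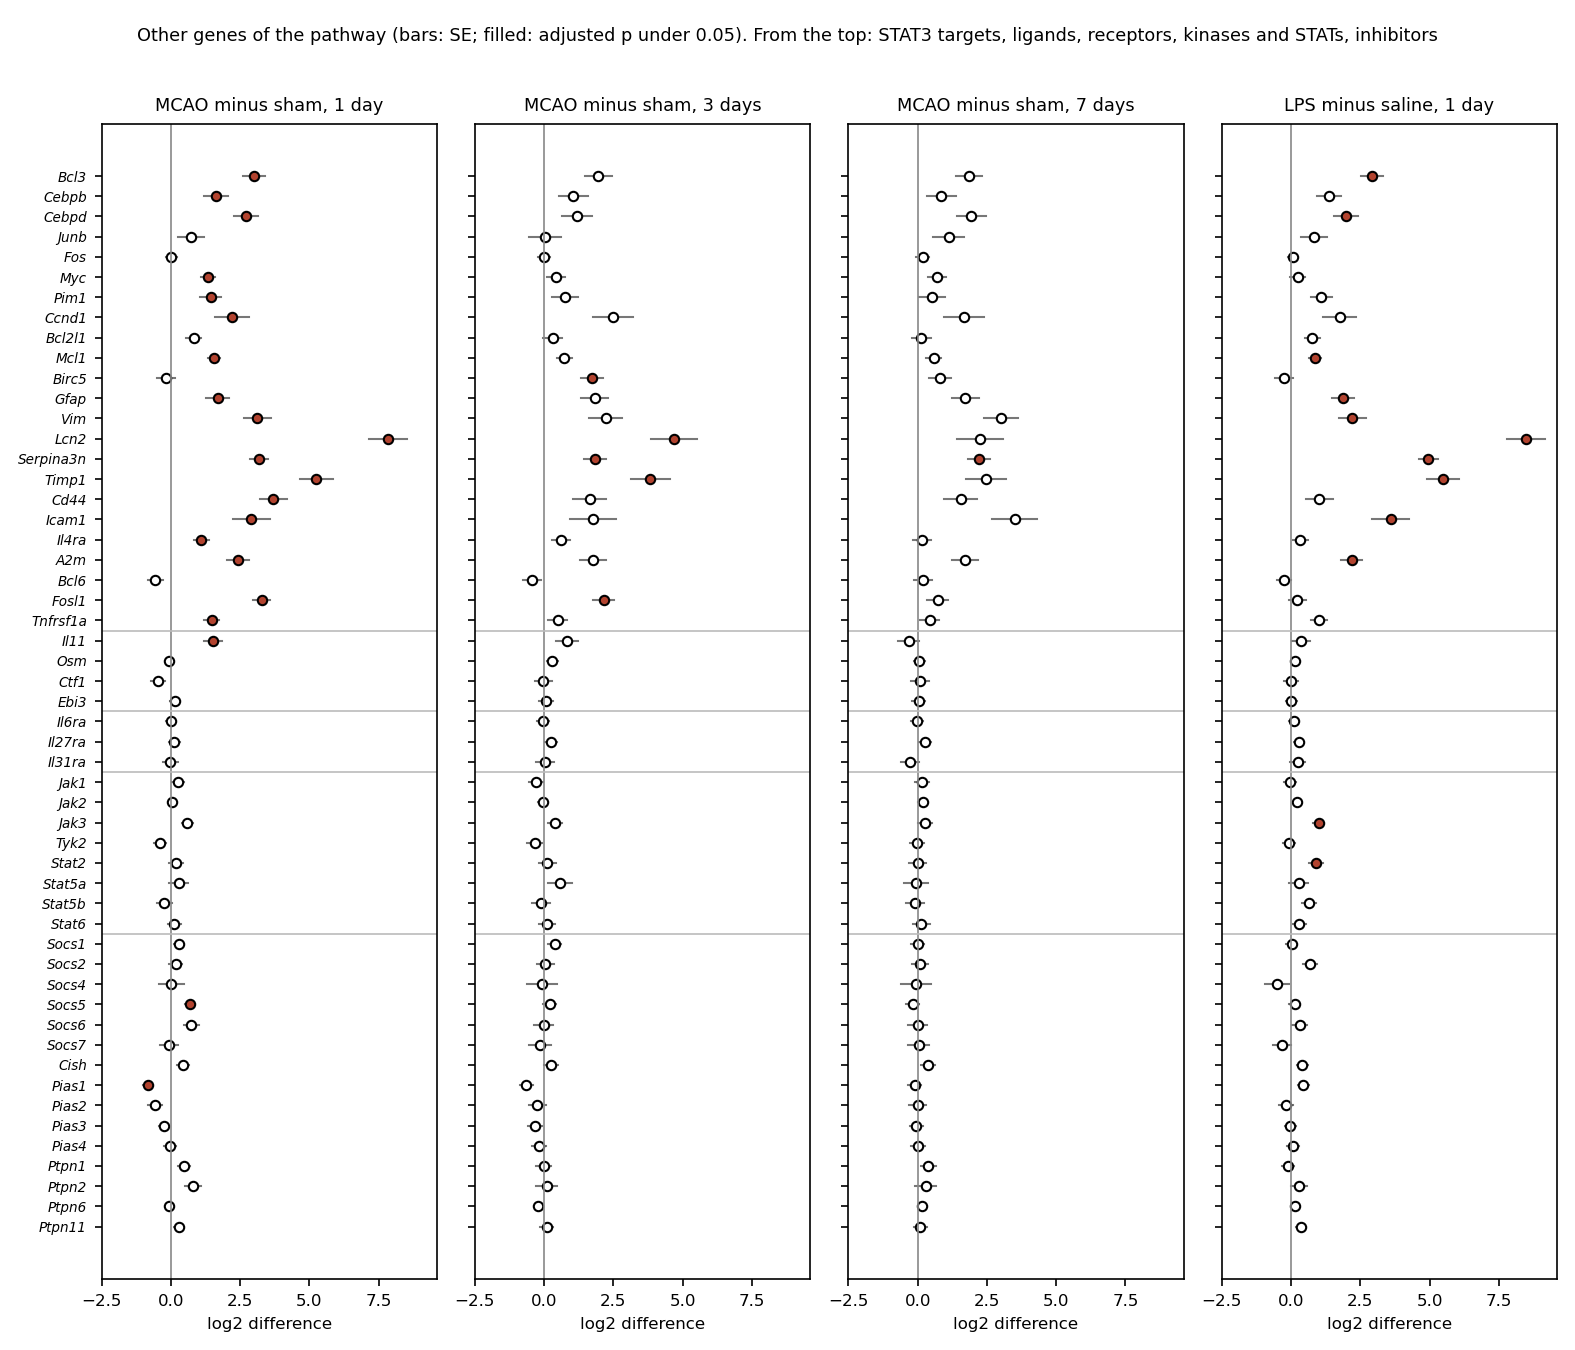
Log2 difference (horizontal axes) with SE bars for the other pathway genes tested in the 4 comparisons, filled where the adjusted p was under 0.05. Of the 23 STAT3 targets at the top, 18 are filled for MCAO against sham on day 1, 5 on day 3, 1 on day 7, and 10 for LPS against saline.

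Over the 30 arrays the genes whose log2 intensity followed each member most closely were listed by Pearson's r, as a description of arrays that share groups and sets. Clcf1 was closest to Hmga2 (0.97), Fosl1 (0.97) and Flnc (0.96). Osmr was closest to Tnfrsf1a (0.94), Gfap (0.94) and Synpo (0.93), Socs3 to Lonrf1 (0.94), Tmem158 (0.92) and Gadd45b (0.92), and Stat3 to Plce1 (0.91), Nudt4 (0.87) and Lypla2 (0.87). Il6 was closest to Adam12 (0.90), Iqgap1 (0.90) and Eif1a (0.90), and Lif to Bdkrb2 (0.91), Has2 (0.88) and Ifi204 (0.87). Il6st was closest to Aars (0.93), Cnn3 (0.89) and Gar1 (0.89). Lifr was closest to Gjb6 (0.89) and Slc1a3 (0.85), genes of astrocyte coupling and glutamate uptake, and to 9330159F19Rik (0.85), and Cntfr to Cyp46a1 (0.81), Pcdh1 (0.81) and Etv4 (0.81). Among the members themselves Il6 and Clcf1 had an r of 0.85 and Osmr and Cntfr of -0.72.

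Some markers of astrocytes and of other cells differed in the 1-day comparisons. Of 10 astrocyte markers tested at 1 day after MCAO, 2 were called lower, Slc1a3 (-0.52 ± 0.15 SE) and Gjb6 (-0.63 ± 0.16). Gfap (1.69 ± 0.40), which encodes the astrocyte filament protein, was the 1 called higher. The summed intensity of the 10 was 129501 to 147343 after MCAO, against 146815 to 154269 after sham surgery. After LPS, where 3.11% of all genes were called, 1 of 10 astrocyte markers tested was higher, Gfap (1.87 ± 0.40). The same held for 1 of 10 microglia and macrophage markers, Cd14 (2.59 ± 0.51), and 1 of 7 pericyte and smooth muscle markers, Rgs5 (1.98 ± 0.41). Without Cd14 and Cd68 the microglia and macrophage sum was 515 to 682 after LPS, against 465 to 731 after saline. The pericyte and smooth muscle sum was 2052 to 6752, against 3737 to 5624. That of 7 fibroblast and leptomeningeal markers was 1008 to 4382 after LPS, against 817 to 2022 after saline. Of these 7 markers 0 were called, and their median difference was 0.76, against 0.07 over all genes. The summed intensity of 11 microglia and macrophage markers was 2854 to 3701 after MCAO at 1 day, against 832 to 1632 after sham surgery. Of these, Cd14 (4.09 ± 0.51 SE) and Cd68 (1.98 ± 0.26) were called higher, and without both the sum of the other 9 was 680 to 1323 after MCAO, against 693 to 1421. The microglial markers Cx3cr1, P2ry12 and Tmem119 lay between 4.81 and 7.95 on all arrays. Of 8 neutrophil and monocyte markers 2 were called higher, S100a8 (0.87) and Il1r2 (0.87), with sums of 519 to 574, against 430 to 484. Of 9 endothelial markers tested 1 was called higher, Vwf (1.57), with sums of 1386 to 8370, against 2479 to 8665. Of 7 pericyte and smooth muscle markers tested 1 was called higher, Tagln (1.53). The sum of 8 markers of these cells was 3290 to 7327 after MCAO, against 5257 to 7692. Of 8 oligodendrocyte markers tested 2 were called lower and 0 higher, with sums of 12525 to 27777, against 17191 to 35688. Of 6 oligodendrocyte precursor markers 1 was lower and 0 were higher, with sums of 690 to 1136, against 932 to 1417. Over all genes 12.7% were called in this comparison. The part of these cells in the readings of the 9 members was not tested.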

How the data were processed

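Sorted astrocytes were profiled on an Affymetrix mouse expression array. The authors deposited an intensity on the linear scale for each probe set of each array, normalised with RMA, per the submitters' processing notes (version not given in the sources used here). Of 45037 probe sets 34945 carry 1 symbol. Per gene the one with the highest mean over 30 arrays was used, log2 was taken, and genes at 5 (intensity 32) or more on at least 3 arrays were kept (15726 genes). limma 3.58.1, run in R 4.3.3, gave the tests, from 1 model over the 8 groups (22 residual and 4.55 prior degrees of freedom), with Benjamini-Hochberg adjustment over all genes. All tests were 2-sided, and a gene was called at an adjusted p under 0.05. The method was tested on simulated data. An array gives no count of reads, so precision here is set by how many arrays there are.

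The members, lists and alternatives were chosen with earlier results of these data known. All 9 members are named in every comparison, up to 5 called genes per other list and comparison by size, and 3 genes per member by Pearson's r. Numbers in the description labels paired the 1-day surgery arrays: same-numbered arrays deviated together, with r of 0.234, 0.191, 0.500 and 0.165. Title numbers there, and numbers in the other comparisons, did not meet the limit of 0.1 in every pair, or only 1 pair shared a number. Alternatives covered normalisation, filters, probe set choice, variance models, array weights, compared groups alone, blocks and leaving out each array. The set of arrays and the block within the 1-day surgery arrays were added after seeing the data.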

Additional observations from a re-analysis of the deposited data

Results flagged for a closer look

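Osmr on sham array 3 of 1 day read 11.89, and the next highest sham array read 9.12. That gap is 0.930 of the range of the 4 arrays. It was the 1 of 36 sets of a member and a group in which an array stood apart so far, and chance flags about 1 in 20 groups.

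The effects of MCAO and LPS at 1 day differed by 3.35 for Il6 and by 3.90 for Clcf1, and the MCAO effect on Clcf1 differed by -3.42 between 7 days and 1 day.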

How the results depend on the processing

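Over single members, alternative settings left 1401 values on the same side of the threshold and of the same sign, 52 lost a call, 45 gained one and 39 changed sign. The division into bright and dim arrays and signals near the filter level for Il6 and Clcf1 limit these results. Causes were not tested, beyond fewer arrays where arrays were left out.

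At 1 day after MCAO (1991 genes called) array weights called 6161 genes, the compared groups alone 5180, an adjusted p under 0.01 1096, the description-number block 1078, and that block in the 1-day surgery arrays only 1218. Leaving out 1 array gave 1367 to 1914. At 3 days (106 genes, 1 member) the counts of genes and members were 68 genes without shared probe sets, 1937 and 5 with weights, 0 and 0 with the groups alone, 12 and 0 at 0.01, 10 and 0 with the title-number block, 23 and 0 with the description-number block, 0 and 0 in the bright pair, and 867 and 6 in the dim arrays. Leaving out MCAO array 1, 2 or 3 gave 15, 9 or 650 genes, and sham array 1, 2 or 3 gave 4, 3 or 314, with 0 to 3 members.

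At 7 days (4 genes, 0 members) the genes were 14 with quantile normalisation, 2 with median centring, no filter or 0.01, 13 with a filter of 6, 7 with the mean of probe sets, 17 with robust variance or the array set as covariate, 525 with weights, 205 alone, 1 with either block and 44 in the dim arrays. The members were 3 with weights or alone. Leaving out MCAO array 1 gave 7 genes, and MCAO array 2 or sham array 1, 2 or 3 gave 2. After LPS (489 genes, 1 member) the genes were 1660 with weights, 65 alone, 197 at 0.01, 836 with the array set as covariate, 1013 with that and LPS array 5 left out, and 117 in the dim arrays. The members were 2 with the mean of probe sets, without shared probe sets, with the title-number block or with the set and LPS array 5 left out, 3 with weights, and 0 alone or in the dim arrays. Leaving out LPS array 1, 3 or 4 or saline array 4 gave 307, 990, 804 or 225 genes, with 1 to 2 members over all arrays left out.

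For MCAO against LPS effects (2 members) the count was 4 with weights or with the set and LPS array 5 left out, 1 alone, at 0.01 or in the bright arrays, and 1 to 3 with an array left out. For 7 days minus 1 day (1 member) it was 4 with weights, 2 alone, 0 at 0.01 and with the title-number, description-number and 1-day blocks, and 0 to 1 with an array left out. For 3 days minus 1 day it was 1 in the bright arrays, and for 7 minus 3 days 1 with weights or in the dim arrays. The block within the 1-day surgery arrays changed no other call of a member than those of Il6st, Lifr and Clcf1 given above. In the other comparisons the numbers did not meet the limit in every pair, or only 1 pair shared a number.

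Signs changed for small differences, and in the single bright pair of 3 days also for Clcf1, Osmr and Lif, whose differences were 2.60, 2.09 and 1.22 over all 3-day arrays. Lifr at 7 days was -0.037 with quantile normalisation, -0.0081 with median centring, -0.064 with the mean of probe sets and -0.094 to 0.14 with an array left out. Il6st at 3 days was -0.027 with the mean of probe sets and -0.060 to 0.39 with an array left out. Between MCAO and LPS effects Cntfr was -0.38 with the mean of probe sets, -0.045 with weights, -0.028 with the set as covariate, -0.035 with the 1-day block, and -0.215 to 0.21 with an array left out. Stat3 was 0.056 there without shared probe sets and -0.70 to 0.28 with an array left out, Il6st -0.13 with weights and -0.022 to 0.23 with an array left out, and Osmr -0.36 in the bright arrays. Socs3 at 7 days minus 1 day was 0.18 without shared probe sets, and Lifr at 3 days minus 1 day -0.037 with weights. In the bright pair of 3 days Clcf1 was -0.34, Lif -0.070, Osmr -0.26, Il6st -0.44, Lifr 0.020 and Stat3 -0.81, and after LPS in the dim arrays Lifr was -0.12 and Cntfr 0.092.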
